A study of Mus musculus with 8 samples.

Results

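Precursor and transitional B cell genes are transcribed at the stages that lie before the mature splenic B cell, and 10 of them are described here: Cd93, Cd24a, Vpreb3, Vpreb1, Igll1, Rag1, Rag2, Dntt, Il7r and Sox4. They were chosen by name, with earlier results of these data known. Every probe set that the platform annotation pairs with exactly 1 of them was taken. This gave 27 probe sets of the 45037 non-control probe sets on the array, and 10 of its 18193 named genes. The RNA was from B cells of the spleens of Irf4 null mice (irf4-/-, n = 4 arrays) and of irf4+/+ littermates (wild type, WT, n = 4 arrays), all C57BL/6 and 12 weeks old, and 1 Affymetrix mouse array was hybridised per sample. The cells were enriched by removing other cell types with magnetic beads, and the labels call them mature B cells without naming a step that separates transitional from mature cells. Which part of Irf4 was deleted is not stated in these sources. Whether every array came from a different mouse is not stated either, and the p-values therefore reflect only how much these arrays vary, in part perhaps for technical reasons.

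B cells form in the bone marrow by assembling their antibody genes. RAG1 and RAG2 cut the DNA, the terminal transferase encoded by Dntt adds bases at the joints, and signals through the interleukin 7 receptor keep the precursors alive and dividing. Before a light chain exists, the VPREB1 and IGLL1 proteins pair with the heavy chain as a surrogate light chain. New B cells leave for the spleen as transitional cells, which carry much CD93 and CD24 on their surface, and lose CD93 as they mature. IRF4 acts in this pathway together with the related factor IRF8, where both are known to promote light chain rearrangement in precursor B cells.

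Signals are intensities on a linear scale that the authors computed with MAS5, and all arrays had the same trimmed mean signal of 500.003. Without detection calls, a dim signal cannot be told from background. Irf4 itself read 285, 259, 244 and 315 in Irf4 null and 2035, 1720, 1779 and 2341 in WT at its brighter probe set. The B cell genes Cd79a, Cd79b, Ms4a1, Pax5 and Cd22 did not pass the test, and their summed signal was 59352 to 64154 in Irf4 null and 57996 to 67815 in WT. The sex-linked RNA Xist splits the arrays in another way than genotype. Irf4 null array 1 and WT arrays 1, 3 and 4 were Xist-high, with signals of 17119 to 19652, and Irf4 null arrays 2, 3 and 4 and WT array 2 were Xist-low, with signals of 49.2 to 94.8. Signals of the Y-linked gene Eif2s3y ran the opposite way, 3216 to 4530 where Xist was low and 3.31 to 25.4 where it was high, so the split is that between male and female RNA, and the labels do not give the sex of the mice. Genotype and sex were thus unbalanced: values within the Xist-high arrays rest on 1 Irf4 null array and values within the Xist-low arrays on 1 WT array, and they are given below as values without a test. Markers of some other blood cells moved with this split. The sum of 14 neutrophil and monocyte markers was 46437 to 102967 on Irf4 null arrays 2 to 4 and 25332 on Irf4 null array 1. It was 87069 on WT array 2 and 15787 to 21270 on the other WT arrays. Summed NK cell, macrophage and dendritic cell, and progenitor markers were likewise higher on all Xist-low than on all Xist-high arrays. The T cell, erythroid and platelet sums were not. The platelet sum was 3444 to 5571 in Irf4 null and 2227 to 3134 in WT, with no overlap.

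Sox4, Vpreb3 and Cd93 fell in Irf4 null B cells, with log2 fold changes of -0.94 to -1.06. These are 3 of the 8 member genes tested at their brightest probe set, and none of the 8 rose. Over all 11802 genes tested, 1.70% were lower and 2.67% were higher in Irf4 null by the same rule (limma, Benjamini-Hochberg adjusted p below 0.05). By limma 2396 of these 11802 genes had an unadjusted p below 0.05, and 1932 did with the Xist split as a term. The unadjusted counts given below for lists of genes are to be read beside these. The median log2 fold change was -0.47 over the 8 member genes and 0.02 over all genes. The members were chosen with earlier results of these data known, so this comparison with all genes describes them and is no test of enrichment. The members did not move together: Cd24a hardly differed, and Vpreb1 and Il7r had values above 0 that did not pass. In RNA of whole preparations, fewer cells of a type and less RNA per cell cannot be told apart.

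**Figure D1:**
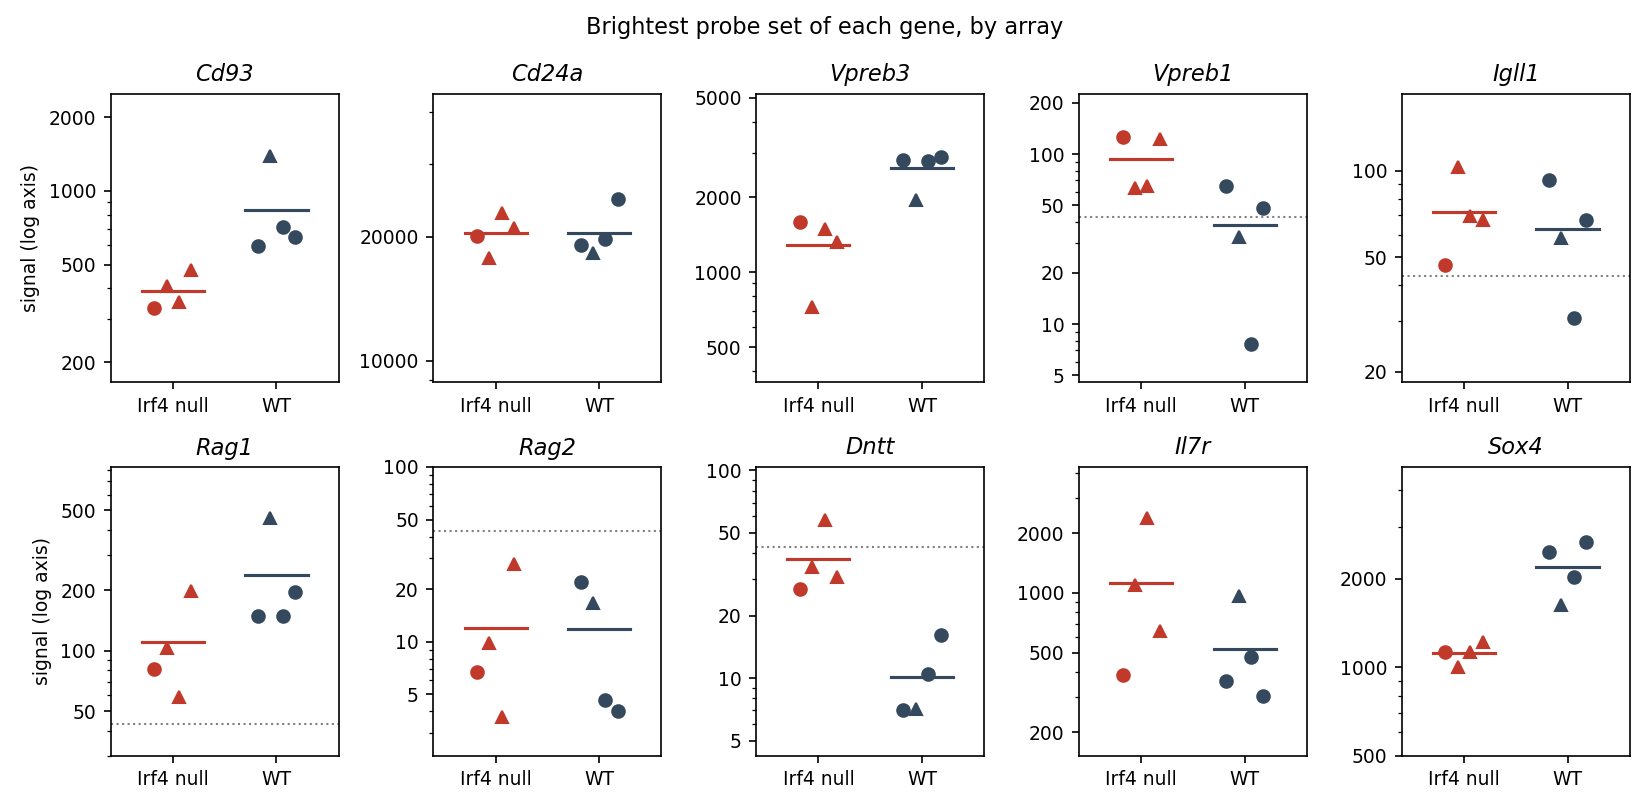
Signal on each array (log axis) of the brightest probe set of each of the 10 genes, Irf4 null on the left and WT on the right. Circles are Xist-high arrays, triangles Xist-low arrays, bars group means, and the dotted line is the signal of 42.9 below which a mean left a probe set untested. Sox4, Vpreb3 and Cd93 show no overlap between genotypes, while Cd24a overlaps throughout.

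The 2 called members with a promoter in the RefSeq table are shown to let a reader see what lies before their starts. The sequences are the 250 bases before the start of Vpreb3 (chr10:75948050-75948299, plus strand) and of Sox4 (chr13:28953700-28953949, minus strand) in GRCm38.p6, written 5′ to 3′ along the gene. Capitals mark matches to the E-box CANNTG and, in Vpreb3, to the octamer ATTTGCAT, a sequence known from B cell promoters; a pair of E-boxes overlap within the run of capitals CACATGTG.
Vpreb3: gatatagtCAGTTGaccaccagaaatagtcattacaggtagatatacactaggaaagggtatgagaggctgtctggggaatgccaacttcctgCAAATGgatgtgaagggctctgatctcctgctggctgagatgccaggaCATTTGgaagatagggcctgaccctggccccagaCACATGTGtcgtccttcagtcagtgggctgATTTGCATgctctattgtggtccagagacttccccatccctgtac
Sox4: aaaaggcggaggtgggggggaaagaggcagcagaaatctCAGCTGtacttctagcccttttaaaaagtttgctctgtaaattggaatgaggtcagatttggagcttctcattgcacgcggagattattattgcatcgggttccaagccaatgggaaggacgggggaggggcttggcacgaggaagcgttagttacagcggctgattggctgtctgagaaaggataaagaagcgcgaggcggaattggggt
Both strands of the 300-base windows, which run 50 bases past the start, were searched in the 8 members matched in the table. The composite Ets-IRF motif (GGAA, then 2 free bases, then GAAA) and the interferon response motif (GAAA, then 2 free bases, then GAAA), which can overlap each other, were in none of the 8, and in 2.72% and 3.44% of all 32851 promoter windows. The EBF letters CCCNNGGG were in the Igll1 window alone among the 8, and in 13.7% of all windows. E-boxes were in every one of the 8, with 5 in Vpreb3 and 1 in Sox4, and in 72.3% of all windows. The octamer, searched after the Vpreb3 sequence had been seen, was in Vpreb3 alone among the 8, at 45 bases before the start, and in 1.74% of all windows. A match is a description of letters and does not show that a factor binds.

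Sox4 encodes an HMG box transcription factor that precursor B cells need to develop. Its brightest probe set, 1433575_at, read 1127, 999.6, 1126 and 1223 in Irf4 null, against 2473, 1634, 2026 and 2671 in WT. Every Irf4 null array lay below every WT array, and the Irf4 null values lay close together. The mean signal was 1119 ± 91.7 in Irf4 null and 2201 ± 464 in WT (SD, n = 4 each). On the log2 scale the difference was -0.94 ± 0.14 (SE; 95% interval -1.26 to -0.63), with a limma adjusted p of 0.00435.

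A pair of dimmer Sox4 probe sets separated the genotypes as well. Probe set 1419156_at read 139, 139, 181 and 161 in Irf4 null and 336, 189, 249.7 and 281 in WT. Probe set 1419155_a_at read 150.3, 118, 93.1 and 126 in Irf4 null and 261, 171, 199 and 199.7 in WT. Neither passed the test over all probe sets, at -0.69 ± 0.18 (SE; limma, adjusted p = 0.0625) and -0.70 ± 0.18 (SE; limma, adjusted p = 0.0585). The fourth tested probe set, 1455867_at, overlapped between genotypes (-0.45 ± 0.49, adjusted p = 0.703, limma). The other 4 Sox4 probe sets were too dim to be tested. The probe sets share a target gene and are not independent measures of it.

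The Sox4 call held with each array left out in turn and with the Xist split as a term (-0.81, adjusted p = 0.0121, limma). Within the Xist-high arrays, with a single Irf4 null array, the difference was -1.06, and within the Xist-low arrays, with a single WT array, it was -0.55. Sox4 lies on chromosome 13, as does Irf4. The part of DNA linked to the altered Irf4 locus in the Sox4 difference was not tested.

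Vpreb3 encodes a protein related to the surrogate light chain component VPREB1 and is transcribed through much of the B lineage. Its single probe set read 1590, 724, 1483 and 1322 in Irf4 null, against 2822, 1952.5, 2781 and 2890 in WT. The genotypes did not overlap, and Irf4 null array 2 and WT array 2 were the lowest of their groups. The mean was 1280 ± 387 in Irf4 null and 2612 ± 442 in WT (SD, n = 4 each). On the log2 scale the difference was -1.06 ± 0.22 (SE; 95% interval -1.56 to -0.57), with a limma adjusted p of 0.0268. The call was lost without Irf4 null array 4 (adjusted p = 0.069) and without WT array 1, 3 or 4 (adjusted p = 0.0869, 0.0807 and 0.0894). It was lost with the Xist split as a term, at -0.81 (limma, adjusted p = 0.0743), and the values were -0.83 within the Xist-high and -0.79 within the Xist-low arrays, each resting on a single array of one genotype.

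Cd93 encodes a surface receptor that marks immature and transitional B cells and is also made by myeloid cells. Its brightest probe set, 1456046_at, read 332, 408, 351 and 474 in Irf4 null, against 598, 1387, 711 and 651 in WT. All Irf4 null arrays lay below all WT arrays, and WT array 2 stood far above the other WT arrays. The mean was 391 ± 63.8 in Irf4 null and 837 ± 370 in WT (SD, n = 4 each). On the log2 scale the difference was -0.995 ± 0.23 (SE; 95% interval -1.51 to -0.48), with a limma adjusted p of 0.0431.

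The second Cd93 probe set, 1419589_at, also separated the genotypes but did not pass. It read 195, 230, 224 and 294 in Irf4 null and 329, 1011, 379 and 390 in WT, a log2 difference of -0.97 ± 0.30 (SE; adjusted p = 0.112, limma). It passed without WT array 2, where the difference was -0.61 (adjusted p = 0.0335), with the Xist term (-1.41, adjusted p = 0.00675) and with the other-cell marker covariate (-1.41, adjusted p = 0.0192). The third tested probe set, 1441907_s_at, overlapped (24.5 to 65.6 in Irf4 null and 31.2 to 86.9 in WT), and the other 2 were too dim to be tested. Together with the 3 Sox4 sets and the Vpreb3 set, 6 of the 17 tested member probe sets, from 3 genes, had all Irf4 null arrays below all WT arrays, and none had them above. Over all 27022 probe sets tested the shares were 5.33% below and 5.48% above. This too is a description, since the members were chosen with earlier results known.

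Without WT array 2 the Cd93 difference was -0.73, with an adjusted p of 0.00943 (limma). With any 1 of the other 7 arrays left out the call was lost, with adjusted p-values of 0.0512 to 0.102. With the Xist term the difference was -1.33 (adjusted p = 0.00232), within the Xist-high arrays, with a single Irf4 null array, it was -0.94, and within the Xist-low arrays it was -1.73, where the single WT array is array 2. On the array with the largest sum of neutrophil and monocyte markers, Irf4 null array 2, Cd93 read 408, and on WT array 2, where that sum was next in size, it read 1387. The sum of 10 macrophage and dendritic cell markers was 1827 to 3445 in Irf4 null and 1642 to 4222 in WT, with WT array 2 the highest of all. None of the 9 tested markers of this list passed in the genotype fit by limma (median log2 fold change 0.06). At an unadjusted p below 0.05 were 2 of them, Adgre1 (0.88) and Itgax (0.72), both higher in Irf4 null. With the Xist term none passed either (5 at an unadjusted p below 0.05, median -0.31). C1qa, a complement gene of macrophages, was then at -1.14 (limma, adjusted p = 0.0889). Adgre1 was at 0.44, Itgax at 0.37 and Xcr1 at 0.02, and the other tested markers of the list were lower in Irf4 null. The other-cell marker covariate was the mean of 59 mixed markers. Among them were Kit and Flt3, also on the early B lineage list, and Cd2, which B cells also transcribe. It was thus not a measure of other blood cells alone. With this covariate Cd93 was at -1.32 (limma, adjusted p = 0.00939), and 2 of the 9 macrophage and dendritic cell markers were called lower as well (median -0.36). The part of these cells in the Cd93 signal was not tested.

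**Figure D2:**
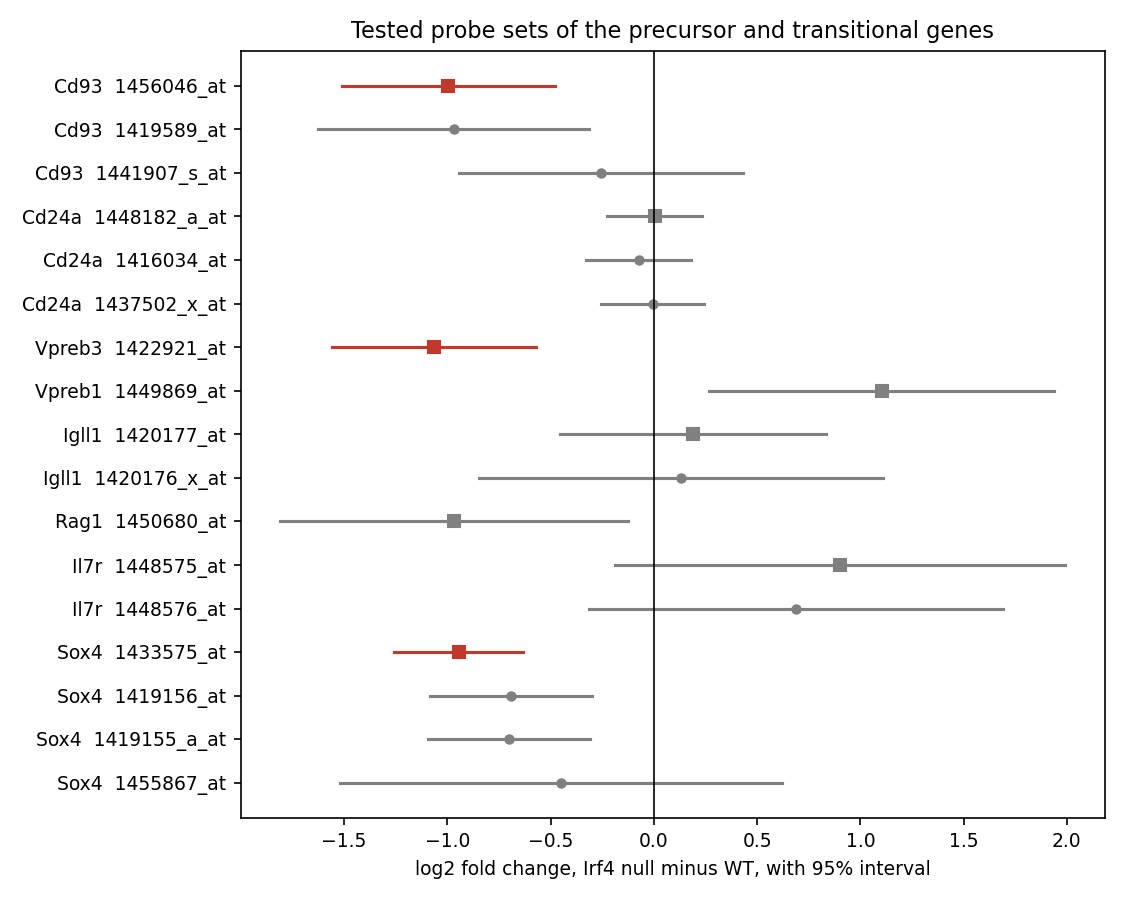
Log2 fold change, Irf4 null minus WT, of the 17 tested probe sets, with 95% intervals from the limma fit. Squares are the brightest probe set of a gene, and red marks an adjusted p below 0.05, reached by 1 set each of Cd93, Vpreb3 and Sox4. The Cd24a intervals are the narrowest and all include 0.

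Cd24a encodes the heat stable antigen CD24, a surface glycoprotein that transitional B cells carry in greater amount than mature follicular cells and that red cell precursors and neutrophils also carry. It was bright in both genotypes and did not pass the test at any of its 3 probe sets. The brightest, 1448182_a_at, read 20116, 17760, 22790 and 21040 in Irf4 null, against 19062, 18264, 19722 and 24697 in WT. The groups overlapped throughout, and the log2 difference was 0.0037 ± 0.10 (SE; adjusted p = 0.991, limma). Its 95% interval was -0.23 to 0.23, so a change as large as that of Cd93, Vpreb3 or Sox4 lies outside it. The other 2 probe sets were at -0.07 and -0.01 (adjusted p = 0.804 and 0.989).

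Rag1 and Rag2 encode the recombinase that cuts antibody and T cell receptor genes. Rag1 read 81.1, 103, 59.0 and 199 in Irf4 null, against 149, 458, 149 and 196 in WT. The groups overlapped through Irf4 null array 4, and WT array 2 was the highest, as for Cd93. The log2 fold change of -0.97 ± 0.38 did not pass (SE; limma, adjusted p = 0.22; unadjusted p = 0.0279; 95% interval -1.81 to -0.13). Without WT array 2 it was -0.62 (adjusted p = 0.281), and with the Xist term -1.41 (adjusted p = 0.0702). Rag2 was too dim to be tested, at 3.71 to 28.0 in Irf4 null and 4.0 to 22.1 in WT.

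The surrogate light chain genes were dim. Vpreb1 read 126, 63.5, 65.0 and 122 in Irf4 null, against 64.8, 32.7, 7.59 and 48.1 in WT. Of the WT arrays only array 1 reached into the Irf4 null range. The log2 difference did not pass (limma, adjusted p = 0.157; unadjusted p = 0.0145), and at this dim signal its size depends on the constant added before the logarithm: it was 1.10 as fitted, 1.54 with a smaller constant and 0.64 with a larger one. A probe set shared with Vpreb2, which the single-gene rule leaves out, read 61.0 to 103 in Irf4 null and 43.4 to 71.1 in WT and did not pass (0.47, limma, adjusted p = 0.331). Igll1 gave 47.0, 103, 69.8 and 67.5 in Irf4 null and 93.2, 58.6, 30.7 and 67.4 in WT at its brighter probe set. Its groups overlapped, with log2 fold changes of 0.19 ± 0.29 and 0.13 ± 0.44 at its 2 probe sets (SE; limma, adjusted p = 0.802 and 0.921).

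Dntt, whose product adds bases at the joints of rearranged genes, had 3 probe sets, all below the level at which a probe set was tested. The brightest, 1449757_x_at, read 26.9, 34.4, 57.7 and 30.6 in Irf4 null, against 7.06, 7.08, 10.5 and 16.1 in WT. It was the only one of the 27 member probe sets whose Irf4 null arrays all lay above the WT arrays, and 4.23% of all 45037 probe sets did so. In a fit without the filter on dim probe sets its log2 difference of 1.01 did not pass (limma, adjusted p = 0.076), and its other 2 probe sets overlapped. Among the recombinase, transferase and surrogate light chain genes, Rag2 and Dntt were thus below the cut of 42.9 for testing. Vpreb1 and Igll1 were tested, with dim signals near it, and Rag1, at 59.0 to 199 in Irf4 null and 149 to 458 in WT, lay further above it.

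Il7r encodes the alpha chain of the interleukin 7 receptor, which precursor B cells carry and which T cells also carry. Its brighter probe set, 1448575_at, read 385, 1099, 2386 and 644 in Irf4 null, against 360, 962, 477 and 305 in WT. The groups overlapped, Irf4 null array 3 was the highest, and WT array 2 was the highest in WT. The log2 fold change was 0.90 ± 0.49 and did not pass (SE; limma, adjusted p = 0.395), nor did the second probe set (0.69 ± 0.45, adjusted p = 0.498). Without Irf4 null array 3 the difference was 0.44 (adjusted p = 0.674), and with the Xist term it was 0.17 (adjusted p = 0.893).

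T cell genes varied over the arrays beside Il7r. The T cell receptor complex gene Cd3d, singled out after its values were seen, read 223, 647, 2516 and 442 in Irf4 null and 141, 259, 332 and 159 in WT, so the Irf4 null array 3 was highest for both genes. The 13 summed T cell markers gave 6689 to 15698 in Irf4 null and 7150 to 8669 in WT, and none of the 12 tested passed by limma (4 had an unadjusted p below 0.05; median log2 fold change 0.86). Cd2, which B cells also transcribe, made up much of that sum, and Cd4 was the dimmest of the list at 6.86 to 12.2 in Irf4 null and 7.78 to 9.35 in WT. Among WT arrays Il7r was highest on array 2, at 962, where Cd3d, at 259, was below its signal of 332 on WT array 3. With the mean of 59 other-cell markers as a covariate the Il7r difference was -0.09 (limma, adjusted p = 0.91). The part of T cells in the Il7r signal was not tested.

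**Figure D3:**
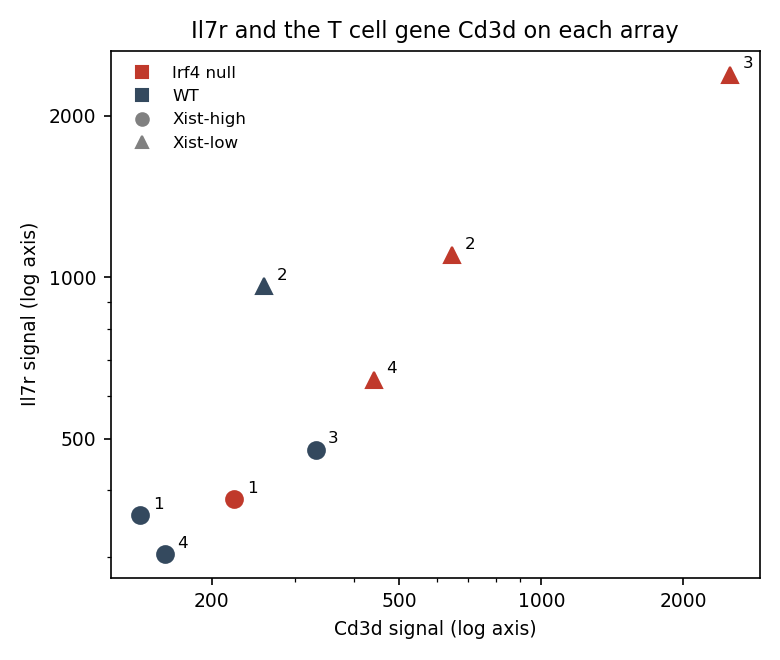
Il7r signal against Cd3d signal (both log axes) on each of the 8 arrays, with array numbers beside the points. Irf4 null array 3 is highest on both axes, at 2516 for Cd3d and 2386 for Il7r, and WT arrays 1 and 4 are lowest on both.

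The members varied among the WT arrays in opposite ways. On WT array 2, the only Xist-low WT array, all tested probe sets of Cd93, Rag1 and Il7r had their highest WT signal, 6 sets in all. The 3 brightest Sox4 sets, the Vpreb3 set, 2 Cd24a sets and 1 Igll1 set had their lowest, 7 sets in all. A test of whether the genotype difference is another within the Xist-low than within the Xist-high arrays rests on 1 WT array and 1 Irf4 null array. None of the 17 tested member sets passed it (limma, lowest adjusted p = 0.35; 3 sets at an unadjusted p below 0.05), nor did any of all 27022 probe sets (0%), which does not show that the differences are alike. The Igll1 set 1420176_x_at was at 1.73 within the Xist-low and -0.996 within the Xist-high arrays.

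**Figure D4:**
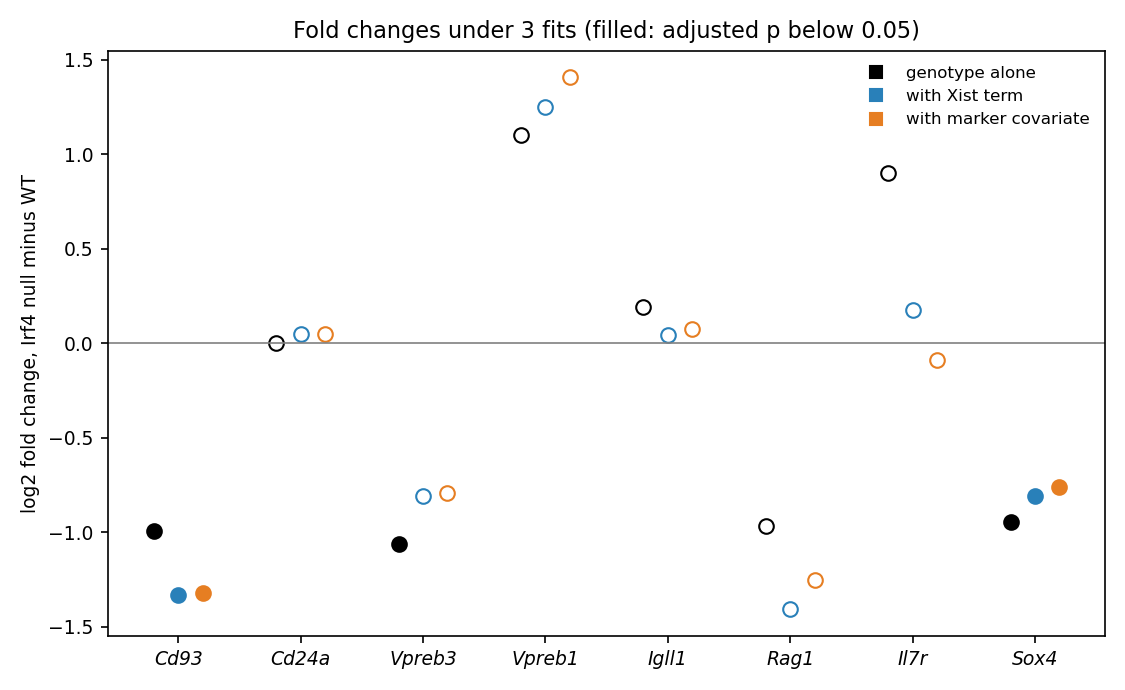
Log2 fold change, Irf4 null minus WT, of the brightest probe set of the 8 tested genes under 3 limma fits: genotype alone, with the Xist split as a term, and with the mean of other-cell markers as a covariate. Filled points have an adjusted p below 0.05. Cd93 and Sox4 stay filled in all 3 fits, Vpreb3 in the first alone, and Il7r stands at 0.90, 0.17 and -0.09.

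Under both added terms Cd93 and Sox4 passed the test, while Vpreb3 kept its direction at -0.81 with the Xist term and -0.79 with the marker covariate and did not pass (limma, adjusted p = 0.0743 and 0.108). The shares of all genes called lower were then 1.10% with the Xist term and 1.06% with the marker covariate.

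The pathway around these genes was read from lists chosen with earlier results known. In the genotype fit by limma, 2396 of all 11802 genes tested had an unadjusted p below 0.05. Of 16 tested regulators and surface genes of the early B lineage, such as Ebf1, Pax5 and Tcf3, none passed by limma (2 had an unadjusted p below 0.05; median log2 fold change -0.06). Foxo1, a transcription factor that drives Rag transcription, read 2877, 2316, 2945 and 2111 in Irf4 null and 3631, 3123, 3613 and 3536 in WT. These groups did not overlap, yet the difference of -0.45 ± 0.11 did not pass (SE; limma, adjusted p = 0.0537). Irf8, the related factor that acts with IRF4 in precursor B cells, was at 0.17 ± 0.08 (adjusted p = 0.286). Of 10 tested genes that repair the breaks made by the recombinase, none passed by limma (2 had an unadjusted p below 0.05; median 0.11). Among these Xrcc5, a subunit of the Ku complex, was at 0.38 ± 0.09 (adjusted p = 0.0523), and the DNA polymerase gene Polm at -0.77 ± 0.20 (adjusted p = 0.0614).

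Of 13 tested genes of interleukin 7 signalling, Bcl2, a survival factor, fell by 0.67 ± 0.14 on the log2 scale (SE, limma, adjusted p = 0.0248). The other 12 did not pass. Over all 13 the median was -0.06, and 3 of the 13 had an unadjusted p below 0.05 (limma). The Bcl2 signals were 1736, 1775, 2286 and 1590 in Irf4 null, against 2505, 2792, 2782 and 3753 in WT, with no overlap. With the Xist term Bcl2 was at -0.67 and no longer passed (adjusted p = 0.0567). Of 9 tested genes of precursor B cell receptor signalling none passed by limma (3 had an unadjusted p below 0.05; median 0.05), with Ighm at -0.27 ± 0.09 (adjusted p = 0.153) and the kinase gene Fyn at 0.26 ± 0.10 (adjusted p = 0.203). Of the 3 tested relatives of Sox4 none passed by limma (0 had an unadjusted p below 0.05), with Sox5 at 0.34 ± 0.23 (adjusted p = 0.513) and Sox12 at 0.12 ± 0.15 (adjusted p = 0.753).

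Of 7 tested genes of mature follicular B cells, a stage that follows the transitional one, 2 fell and none rose (limma, median -0.20). At an unadjusted p below 0.05 were 4 of the 7: these 2, Cr2 and Ccr7. Without passing, Cr2 was higher at 0.28 and Ccr7 lower at -0.70 (limma, adjusted p = 0.157 and 0.0651). Fcer2a, the low-affinity receptor of immunoglobulin E, read 3662, 2622, 4402 and 2486 in Irf4 null, against 6431, 6846, 7880 and 7803 in WT, a log2 difference of -1.17 ± 0.17 (SE; adjusted p = 0.003, limma). Tnfrsf13c, which encodes the BAFF receptor that transitional cells need to survive, read 6888, 5747, 6126 and 6999 in Irf4 null, against 11082, 7406, 12140 and 11614 in WT, a log2 difference of -0.69 ± 0.14 (SE; adjusted p = 0.0244, limma). Neither Fcer2a nor Tnfrsf13c overlapped between genotypes. With the Xist term Fcer2a still passed (-1.08, adjusted p = 0.0104) and Tnfrsf13c did not (-0.50, adjusted p = 0.0531).

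For each called member, the genes with the most similar signal over the 8 arrays were sought among 11794 other genes by Pearson's r of log2 signals, as a description of arrays that share genotype and cell makeup. Cd93 was closest to Mybl1 (r = 0.977), Ppp4r3a (0.973) and Fhit (0.961). Vpreb3 was closest to Fiz1 (r = 0.987), Mrtfb (0.986) and Nol7 (0.986). Sox4 was closest to Rab30 (r = 0.990), Rgs13 (0.980) and Phka1 (0.979). These genes were picked for following the members over the same arrays, so no test of genotype is given for them. No gene was shared between the 3 sets.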

How the data were processed

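The values are intensities, 1 per probe set and array. The authors made them with MAS5, as named in the submitters' processing notes, and no version, scaling target or genome build is stated. The deposited intensities were used without further normalisation. Gene names came from the platform annotation (34958 probe sets with 1 symbol, 932 with several, 9211 unnamed here), and gene identifiers brought 34754 symbols up to the RefSeq table of GRCm38.p6. The 64 control probe sets were removed. Signals became log2(signal + 16), which shrinks the fold changes of dim probe sets. Probe sets in the lowest 40% by mean over the 8 arrays (a mean log2 of at most 5.88) were not tested, so 27022 remained; 17 of the 27 member probe sets did, and none of Rag2 or Dntt. Irf4 null minus WT was fitted by limma 3.58.1 (R 4.3.3; lmFit and eBayes with a variance trend). P-values were adjusted by Benjamini-Hochberg across all tested probe sets, and 0.05 was the threshold. The brightest probe set by mean log2 stands for a gene. The script was tested on simulated data.

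Members and lists were chosen with earlier results of these data known. All members are named. From each other list the text names up to 4 called genes with the smallest adjusted p, or 2 where none was called. Cr2 and Ccr7, which were not called, are named as well. For each called member its 3 nearest genes are named. Xist-high arrays are those over a signal of 1000. The marker covariate leaves out plasma cell markers, since plasma cells depend on Irf4, and 3 of 5 tested plasma cell markers fell. The covariate includes Kit and Flt3, also listed as early B lineage genes, and Cd2, which B cells transcribe. Other marker lists are described in the text where they touch a member. Of the rest, 2 of 7 tested NK cell markers and 1 of 5 platelet markers rose by limma. All 7 and all 5 had an unadjusted p below 0.05, with median log2 fold changes of 1.24 and 0.63. With the Xist term 3 of the NK cell markers and none of the platelet markers rose. In the genotype fit none of 8 erythroid and 4 progenitor markers passed (limma, 0 and 1 at an unadjusted p below 0.05). Promoters are from RefSeq (8 of 10 members matched). Alternatives were the pseudocount, filter, scaling, variance model, replicate block, Xist term, each Xist set alone, marker covariate and each array left out. The number of arrays limits the precision. Figures were drawn with matplotlib 3.10.9.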

Additional observations from a re-analysis of the deposited data

Results flagged for a closer look

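In each genotype of 4 arrays, the highest or lowest log2 value was compared with its neighbour for the 27 member probe sets, 54 groups in all, and 4 groups held an array whose gap exceeded Dixon's 95% critical value as a share of the group's range; chance flags about 1 in 20 groups. In 3 of the 4 it was WT array 2. Its Cd93 signal at 1419589_at, 1011, lay above the other WT arrays with a gap of 0.851 of the range. Its Vpreb3 signal, 1952.5, lay below with a gap of 0.902, and its Cd24a signal at 1437502_x_at, 8134, lay below with a gap of 0.84. The fourth was the dim Sox4 probe set 1458332_x_at, at 34.3 on Irf4 null array 4, with a gap of 0.841. WT array 2 is also the only Xist-low WT array.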

How the results depend on the processing

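Sox4 was called lower in 20 of 21 alternatives, Vpreb3 in 11 and Cd93 in 10. None of the 3 changed direction, and no member gene was called higher in any. These counts include the fits within each Xist set. Each Xist set holds a lone array of 1 genotype, which is assumed to vary like the rest, so calls there are no support. The 3 lower member genes became 1 with eBayes without trend and with robust variance, and 1 to 3 with single arrays left out. The 3 lower member probe sets became 5 with a common median, 1 with eBayes without trend or with robust variance, and 1 to 6 with single arrays left out. Over all probe sets 407 were lower and 543 higher; the counts were 200 and 355 with eBayes without trend, 256 and 381 with the Xist term, 85 and 170 within the Xist-high arrays, 109 and 155 within the Xist-low arrays, and 233 and 357 with the marker covariate. With single arrays left out they were 183 to 875 lower and 283 to 1297 higher, most without WT array 2. The replicate block gave 478 lower and 690 higher, with the same 3 member genes called, its samples share only a number: the deviations of same-numbered arrays correlated at r = 0.24, 0.28, -0.03 and -0.08, and 4 of 8 arrays correlated best with the array of their own number.

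The probe sets of members and of Irf8 whose sign turned were not called in any setting. Cd24a 1448182_a_at was at -0.071 with a common median, -0.063 within the Xist-high arrays and -0.051 to 0.10 with single arrays left out. Cd24a 1416034_at was at 0.010 within the Xist-low arrays. Cd24a 1437502_x_at was at 0.017 with the Xist term, 0.17 within the Xist-low arrays, 0.079 with the marker covariate and -0.12 to 0.081 with single arrays left out. Igll1 was at -0.25 (1420177_at) and -0.996 (1420176_x_at) within the Xist-high arrays, and at -0.038 to 0.37 and -0.33 to 0.43 with single arrays left out. Il7r was at -0.090 (1448575_at) and -0.19 (1448576_at) with the marker covariate, and 1448576_at at -0.16 within the Xist-high arrays. Sox4 1455867_at was at -0.79 to 0.041 with single arrays left out, and Irf8 at -0.0098 within the Xist-low arrays. The cause was not tested. Vpreb1, Igll1, Rag2 and Dntt are too dim for these arrays to fix a fold.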
